A study of Sus scrofa with 12 samples.

Results

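Maternal mRNA decay was followed through 10 genes during in vitro maturation of porcine oocytes. The list holds the adaptor BTG4, the scaffold CNOT1 and the nucleases CNOT6, CNOT6L, CNOT7 and CNOT8 of the CCR4-NOT deadenylase, the RNA-binding recruiters ZFP36L2 and YTHDF2, and the uridylyltransferases TUT4 and TUT7. The genes were matched to the deposited Ensembl identifiers by symbol. Of the 10 genes, 9 had an identifier among the 31908 listed in each library, and 8 reached the mean of at least 1 FPKM over all libraries that was required for the gene test, which covered 7013 genes. TUT4 fell under that level and was tested on its own, and TUT7 was not analysed here because no identifier was paired with its name.

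The 12 libraries held 4 replicates at each of 0h, 22h and 46h of culture. The deposited design text names germinal vesicle for 0h, metaphase II for 46h, and pre-metaphase I for a middle time that differs from the 22h of the sample labels used here. Nuclear stages were not checked in these libraries. Each library was made from 20 oocytes freed of their cumulus cells. The oocytes came from pooled cumulus-oocyte complexes of slaughterhouse ovaries of prepubertal gilts. Those of 22h and 46h had been cultured in the same maturation medium with gonadotropins, whereas those of 0h had no culture time. No genetic or drug treatment was applied. The pooled oocytes mean that p-values measure the spread between libraries, which may be in part technical. FPKM is scaled by transcript length and by the fragment total of its library, and levels of different genes are set side by side on that scale only. The longest annotated transcripts of the 10 genes ran from 2165 bases (ZFP36L2) to 12398 (YTHDF2). Whether mRNAs of unlike length were captured and covered alike was not tested, and RNA per oocyte was not measured. The cDNA was primed with oligo-dT, and a change in mRNA amount and a change in poly(A) tail length cannot be told apart in any of these values.

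A fully grown oocyte is transcriptionally silent and matures on stored mRNA, much of which is removed before the embryonic genome is switched on. CCR4-NOT shortens poly(A) tails, and BTG4 is an oocyte adaptor known to bring the complex to translating mRNA. RNA-binding proteins select targets, as ZFP36L2 does at AU-rich elements and YTHDF2 at N6-methyladenosine, and TUT4 and TUT7 add uridines to short tails, which marks the mRNA for decay.

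In the RefSeq annotation of Sscrofa11.1 the genes lie on 8 chromosomes. BTG4 is at chr9:39253116-39281327, CNOT1 at chr6:20271593-20372300, CNOT6 at chr2:78131236-78202518, CNOT6L at chr8:73191721-73335779, CNOT7 at chr17:4934379-4950093 and CNOT8 at chr16:68329785-68352020. ZFP36L2 is at chr3:97200395-97203094, YTHDF2 at chr6:85717147-85756750, TUT4 (named ZCCHC11 there) at chr6:159655658-159794450 and TUT7 (named ZCCHC6 there) at chr10:28995564-29061179. The deposited values carry no coordinates, and these were taken by symbol.

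Because the libraries were primed at the tail, the end of each mRNA was read from the reference genome. The longest annotated transcript of each gene was used, and its last 100 bases were searched on the mRNA strand for the poly(A) signals AATAAA and ATTAAA and for the cytoplasmic polyadenylation elements TTTTAT and TTTTAAT, a kind of element through which oocytes lengthen tails during maturation. One of the poly(A) signals was present in 7 of the 10 ends, beside 70.5% of 16940 annotated ends searched in the same way, and one of the cytoplasmic elements in 2 of the 10 ends, beside 17.3%. The 30 bases around the signal nearest the end are shown 5′ to 3′ for the 5 genes with such a signal whose levels the results turn on, with poly(A) signals and cytoplasmic elements in capitals and the rest in lower case.
BTG4, chr9:39253124-39253153, minus strand: gaaaagtaacagtttaAATAAAcgtgctgt
CNOT6, chr2:78131248-78131277, minus strand: ggggttatactaattcATTAAAtgttttac
CNOT6L, chr8:73191732-73191761, minus strand: tcctccccctgtaggcAATAAAtggccatt
CNOT8, chr16:68329796-68329825, minus strand: gtTTTTAATtttgtaaAATAAAgatgtctt
YTHDF2, chr6:85756721-85756750, plus strand: atatagtgtaccacctatgaaaAATAAAta
The signal of BTG4 began 22 bases before the annotated end, that of CNOT6 26 bases, those of CNOT6L and CNOT8 25 bases and that of YTHDF2 8 bases. CNOT8 was the only one of these 5 ends with a cytoplasmic element in the 100 bases, and its TTTTAAT, which 4.83% of all ends held, began 39 bases before the end. TUT4 held TTTTAT 94 bases before its end and no poly(A) signal, and the ends annotated for CNOT7 and ZFP36L2 held none of the 4 motifs. Of the last 20 annotated bases, 18 were A in CNOT7 and 20 in ZFP36L2, against 4 to 11 in the other 8 genes, so those 2 models stop at an A-rich stretch of the genome. These are matches of letters in predicted gene models and not mapped ends of the mRNA in these oocytes.

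Total FPKM of the libraries ranged from 697468 to 802184, and the depth in reads is unknown. Genes at 1 FPKM or more numbered 6939 to 7895 in the 0h, 6682 to 7135 in the 22h and 5819 to 6076 in the 46h libraries. Mitochondrially encoded protein genes made up 1.79% to 3.76% of the 0h libraries, 8.06% to 12.02% of the 22h libraries and 12.8% to 16.7% of the 46h libraries. Replicate 4 of the 0h stage stood apart, with correlations of 0.934 to 0.970 with its stage, whereas the best correlation of the other 0h libraries reached 0.988. All 11 matched oocyte markers were above 1 FPKM in at least 1 library, among them GDF9, ZP3 and BMP15, and their summed level was 16409 to 23849 FPKM in the 0h, 21982 to 32252 in the 22h and 9142 to 14092 in the 46h libraries. Mean FPKM went from 140 at 0h to 0.70 at 46h for ZAR1, from 2.12 to 0.69 for DDX4 and from 984 to 37.8 for GDF9. Of these markers KPNA7 alone had a higher mean at 46h, 5763 against 3574 at 0h. Of 15 matched cumulus and granulosa markers, 12 were under 0.5 FPKM in every library with a summed level of at most 0.41 FPKM in the 0h, 0.7 FPKM in the 22h and 0.25 FPKM in the 46h libraries, and LHCGR, INHA and AREG were at 0 in all libraries. VCAN, STAR and FST exceeded 1 FPKM and brought the summed level of the list to between 46.2 and 88.6 FPKM at 0h, between 55.6 and 86.0 at 22h and between 118 and 143 at 46h. Their part in the results was not tested. The median gene tested moved by -0.25 log2 units at 46h against 0h and by -0.26 at 46h against 22h, and by 0.06 and 0.02 after median-of-ratios scaling and 0.34 and 0.17 after quantile normalization. Of the genes called at 46h against 0h, 30.1% were higher as deposited, 47.0% after median-of-ratios scaling and 59.7% after quantile normalization. The corresponding shares were 23.3%, 44.0% and 55.5% at 46h against 22h and 29.4%, 34.8% and 48.6% at 22h against 0h, where TPM without mitochondrially encoded genes gave 39.5%.

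**Figure D1:**
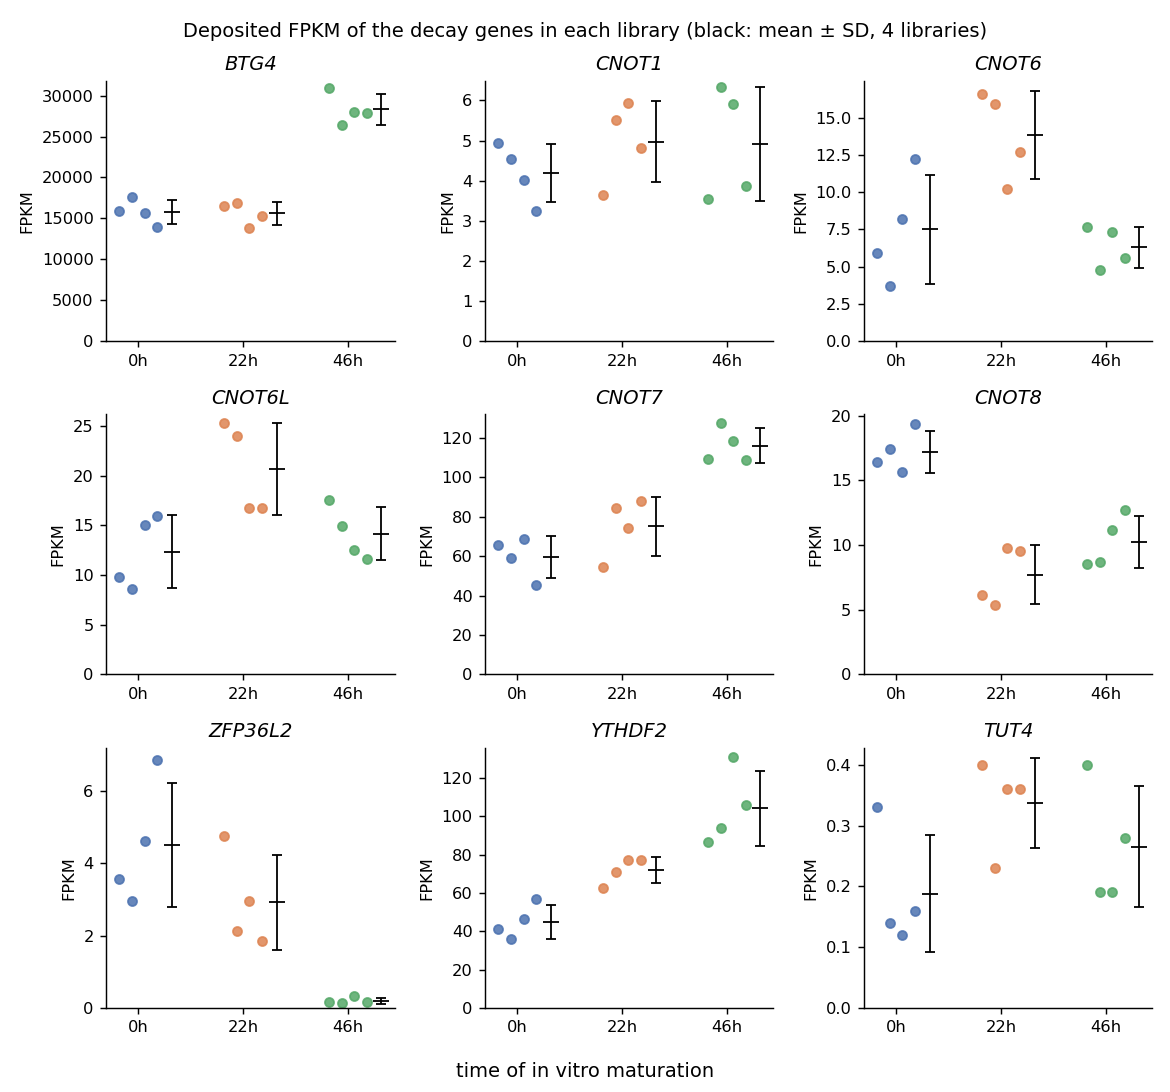
Deposited FPKM (linear axes from 0) of the 9 genes with an identifier at 0h, 22h and 46h, 1 point for each library, with the mean ± SD of 4 libraries in black. BTG4 was at 26453.9 FPKM or more in every 46h library and at 17621.3 FPKM or less in all others, whereas ZFP36L2 was at 0.33 FPKM or less at 46h.

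Between 0h and 46h, BTG4, CNOT7 and YTHDF2 rose, CNOT8 and ZFP36L2 fell, and CNOT1, CNOT6 and CNOT6L did not pass the test. A gene passed where limma gave a Benjamini-Hochberg adjusted p under 0.05 and a fold change over 1.5 on the log2(FPKM + 1) scale. This made 3 of 8 genes higher (37.5%), beside 16.8% of all genes tested, and 2 of 8 lower (25%), beside 39.1%. In the first 22 hours, CNOT6, CNOT6L and YTHDF2 rose, which is 3 of 8 beside 7.84% of all genes, and CNOT8 fell, which is 1 of 8 beside 18.9%. From 22h to 46h, BTG4 and CNOT7 rose, 2 of 8 beside 9.87%, and CNOT6 and ZFP36L2 fell, 2 of 8 beside 32.6%. The balance of calls at 46h depended on the scaling, and at 22h against 0h the counts were 3 and 1 after median-of-ratios scaling, beside 9.57% and 17.9% of all genes, and after quantile normalization, beside 14.6% and 15.4%. After median-of-ratios scaling 4 of 8 were higher and 1 lower at 46h against 0h, beside 29.3% and 33.1% of all genes, and after quantile normalization 4 and 1, beside 40.3% and 27.1%. At 46h against 22h they were 4 and 2 after median-of-ratios scaling, beside 20.2% and 25.7%, 3 and 1 after quantile normalization, beside 26.8% and 21.5%, and 1 and 3 in TPM, beside 7.49% and 36%. As deposited, the median log2 change over the 8 genes was 0.26 at 22h against 0h, 0.19 at 46h against 0h and 0.18 at 46h against 22h. After median-of-ratios scaling this median lay between CNOT1 (0.49) and CNOT6L (0.59) at 46h against 0h. At 46h against 22h it lay between CNOT1 (0.26) and CNOT8 (0.72). After quantile normalization it lay between CNOT6 (0.52) and CNOT6L (0.81) at 46h against 0h. At 46h against 22h it then lay between BTG4 (0.35) and CNOT1 (0.48). The 3 comparisons share libraries. Of the 4 calls at 22h against 0h, that of CNOT8 was kept whichever 0h or 22h library was left out and the other 3 were not. CNOT8 alone was left without 0h replicate 2, 2 calls were left without 0h replicate 1, 22h replicate 1 or 22h replicate 2, and 4 were left without 0h replicate 4. Over all 7013 genes, 1546 to 2172 passed at 22h against 0h with 1 of these libraries left out. The 5 calls at 46h against 0h were kept whichever 0h or 46h library was left out, beside 3831 to 3961 of all genes. With a 22h library left out, the counts at 46h against 0h were again 3 higher and 2 lower.

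**Figure D2:**
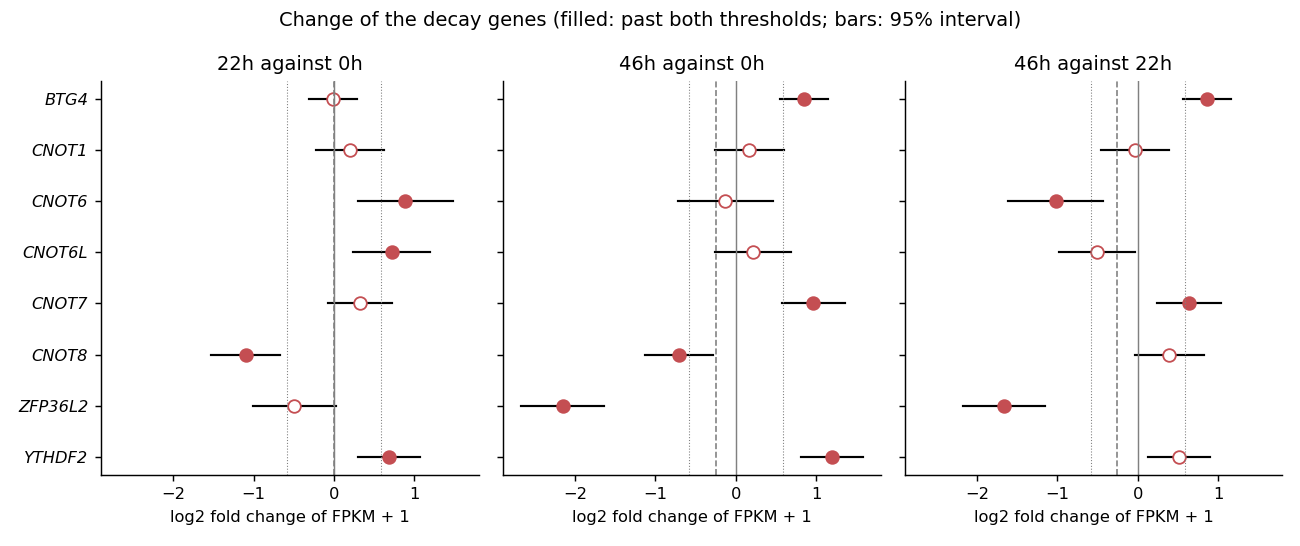
Log2 fold change of FPKM + 1 for the 8 genes tested, 1 panel for each comparison, with 95% confidence intervals as bars and filled circles for genes past both thresholds. The dashed line is the median of the 7013 genes tested and the dotted lines mark a fold change of 1.5. ZFP36L2 lies farthest from 0, at -2.16 for 46h against 0h.

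BTG4, the oocyte adaptor that links CCR4-NOT to its targets, had the highest level of the 9 genes in every library. Its FPKM was 15841.9, 17621.3, 15648.6 and 13936.1 in the 0h libraries, 16543.8, 16871.6, 13761.0 and 15242.7 in the 22h libraries and 30934.2, 26453.9, 28036.5 and 27896.4 in the 46h libraries. The 0h and 22h libraries overlapped, and each 46h library was above all of them. Mean FPKM was 15762 ± 1507 (SD, n = 4) at 0h, 15605 ± 1416 at 22h and 28330 ± 1878 at 46h. BTG4 rose by 0.85 log2 units from 0h to 46h (SE 0.14, adjusted p = 0.00010) and by 0.86 from 22h to 46h (SE 0.14, adjusted p = 0.00016), or 1.8-fold and 1.82-fold. At 22h against 0h it was -0.01 (95% confidence interval -0.31 to 0.28, adjusted p = 0.95). The rise to 46h was 0.94 in TPM without the mitochondrially encoded genes and 1.25 after median-of-ratios scaling, and quantile normalization, which sets the value of a gene by its rank, gave 0.34 (adjusted p = 0.105) and, at 46h against 22h, 0.35 (adjusted p = 0.11), neither of which passed. Relative to the median gene, the change of BTG4 at 46h against 0h was 1.10 as deposited, 1.19 after median-of-ratios scaling and 0.00095 after quantile normalization, where BTG4 moved by as much as the median gene.

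BTG4 ranked between 4 and 11 among the 31908 identifiers at 0h, at 7 or 8 at 22h and at 4 or 5 at 46h. Between 1.78% and 2.44% of total FPKM belonged to BTG4 in the 0h libraries, between 1.95% and 2.18% in the 22h libraries and between 3.39% and 3.86% in the 46h libraries. Every 46h share was above those of both earlier stages, which overlapped. The 5 named genes whose pattern over the 12 libraries was most like that of BTG4, by the root mean square difference of mean-centred log2(FPKM + 1), were OBI1 (0.12), RIDA (0.13), TAF9B (0.14), ATL3 (0.15) and SYCP2 (0.16). All 5 had a far lower level than BTG4: RIDA, the highest of them, had 442 ± 42.6 FPKM at 0h, 505 ± 92.7 at 22h and 871 ± 75.5 at 46h.

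**Figure D3:**
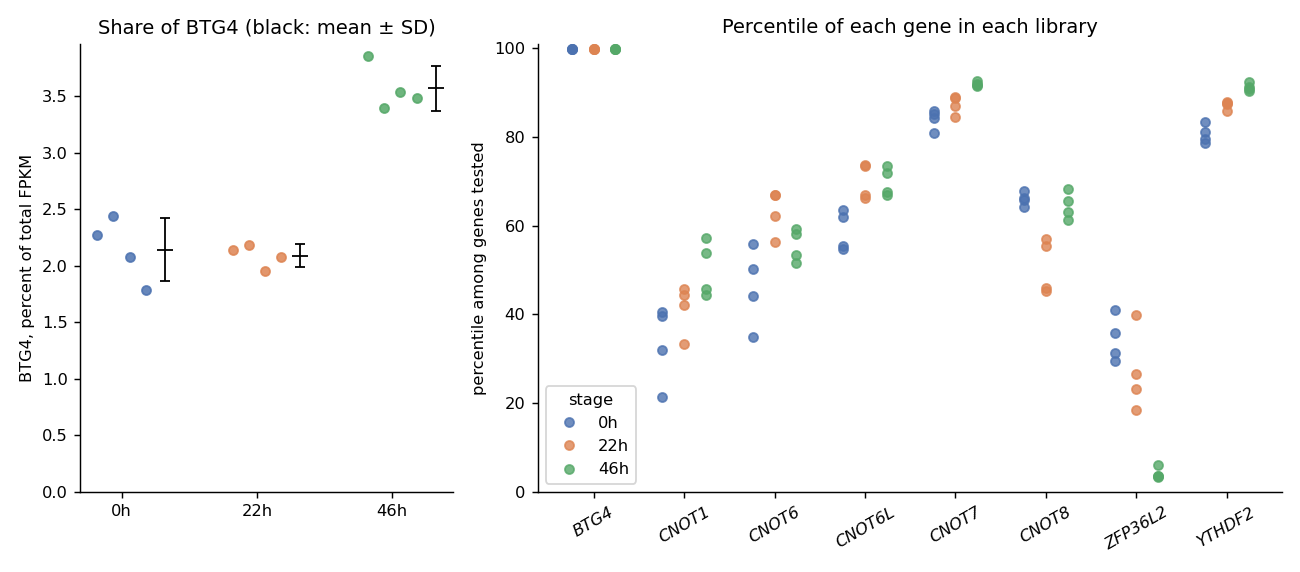
On the left, the percent of total FPKM taken by BTG4 in each library, with the mean ± SD of 4 libraries; on the right, the percentile of the 8 tested genes among the 7013 genes tested, 1 point for each library. BTG4 was at percentile 99.86 or higher in all 12 libraries, and ZFP36L2 lay between 29.4 and 41.0 in the 0h libraries and between 3.3 and 6.03 in the 46h libraries.

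CNOT1, the large scaffold on which the complex is assembled, had a low level with no passed change. Its FPKM was 4.93, 4.55, 4.01 and 3.25 at 0h, 3.63, 5.52, 5.93 and 4.82 at 22h and 3.53, 6.33, 5.91 and 3.86 at 46h. All 3 stages overlapped. The log2 change was 0.20 (95% confidence interval -0.23 to 0.62, adjusted p = 0.47) at 22h against 0h, 0.17 (-0.26 to 0.59, adjusted p = 0.48) at 46h against 0h and -0.03 (-0.46 to 0.39, adjusted p = 0.91) at 46h against 22h. After quantile normalization the change at 46h against 0h was 0.85 and passed (adjusted p = 0.0035). Relative to the median gene this change was 0.42 as deposited, 0.43 after median-of-ratios scaling and 0.51 after quantile normalization.

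The EEP-type nucleases CNOT6 and CNOT6L, alternative catalytic subunits of the complex, had their highest mean levels at 22h. CNOT6 had 5.92, 3.66, 8.17 and 12.25 FPKM at 0h, 16.56, 15.92, 10.19 and 12.71 at 22h and 7.63, 4.74, 7.29 and 5.59 at 46h. The 22h libraries lay above all 46h libraries and overlapped those of 0h through 0h replicate 4. CNOT6 rose by 0.89 log2 units at 22h against 0h (SE 0.28, adjusted p = 0.025) and fell by 1.02 at 46h against 22h (SE 0.28, adjusted p = 0.0074). After quantile normalization the later change was -0.51 and did not pass (adjusted p = 0.079). Its change at 46h against 0h was -0.13 (95% confidence interval -0.73 to 0.46, adjusted p = 0.69), 0.11 without 0h replicate 4 and 0.52 after quantile normalization, with no call in any of these.

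CNOT6L had 9.81, 8.60, 15.08 and 15.96 FPKM at 0h, 25.34, 24.00, 16.74 and 16.71 at 22h and 17.57, 14.96, 12.57 and 11.66 at 46h. Every 22h library was above the 0h libraries, and the 46h libraries overlapped both. It rose by 0.72 at 22h against 0h (SE 0.22, adjusted p = 0.025), and its change was 0.21 at 46h against 0h (adjusted p = 0.43) and -0.51 at 46h against 22h (adjusted p = 0.075). The latter passed in TPM (-0.60, adjusted p = 0.028) and was -0.17 after median-of-ratios scaling and -0.018 after quantile normalization, with no call. The early rises of CNOT6 and CNOT6L were close to the threshold. They lost the call with a fit of only the 2 stages (adjusted p = 0.056 for CNOT6 and 0.052 for CNOT6L), without the filter on low values (0.066 and 0.053), and without 0h replicate 1, 0h replicate 2, 22h replicate 1 or 22h replicate 2 (0.059 to 0.074), with log2 changes of 0.57 to 0.89 in these fits. Without 0h replicate 4 they were 1.13 and 0.85 and passed. CNOT6L at 46h against 0h passed after median-of-ratios scaling (0.59, adjusted p = 0.019) and quantile normalization (0.81, adjusted p = 0.0029). Relative to the median gene this change was 0.46 as deposited, 0.53 after median-of-ratios scaling and 0.47 after quantile normalization.

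The DEDD-type nucleases CNOT7 and CNOT8, which replace each other in the complex, moved in opposite directions between 0h and 46h. CNOT7 had 65.38, 58.86, 68.91 and 45.20 FPKM at 0h, 54.49, 84.20, 74.08 and 87.91 at 22h and 109.03, 127.68, 118.13 and 108.82 at 46h. The 46h libraries were above all others, and those of 0h and 22h overlapped. CNOT7 rose by 0.96 log2 units at 46h against 0h (SE 0.18, adjusted p = 0.00037) and by 0.64 at 46h against 22h (SE 0.18, adjusted p = 0.010). At 22h against 0h its change was 0.32 (95% confidence interval -0.07 to 0.72, adjusted p = 0.19). The rise from 22h was under a fold of 1.5 without 22h replicate 1 (0.49, adjusted p = 0.033) and in TPM (0.55, adjusted p = 0.035).

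CNOT8 had 16.43, 17.44, 15.60 and 19.38 FPKM at 0h, 6.11, 5.37, 9.75 and 9.56 at 22h and 8.50, 8.69, 11.12 and 12.70 at 46h. Every 0h library was above every later library, and those of 22h and 46h overlapped. CNOT8 fell by 1.10 log2 units at 22h against 0h (SE 0.20, adjusted p = 0.00098) and by 0.71 at 46h against 0h (SE 0.20, adjusted p = 0.0064). The fall at 22h was kept under every alternative and ranged from -1.22 to -0.96. The fall at 46h lost its call after median-of-ratios scaling (-0.33, adjusted p = 0.14) and quantile normalization (-0.11, adjusted p = 0.61). Relative to the median gene it was -0.46 as deposited, -0.39 and -0.44. At 46h against 22h its change was 0.39 (adjusted p = 0.12), and it passed as a rise after median-of-ratios scaling (0.72, adjusted p = 0.0065) and quantile normalization (0.88, adjusted p = 0.0013).

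Of the recruiters, ZFP36L2, a zinc finger protein of AU-rich elements, fell and YTHDF2, a reader of N6-methyladenosine, rose. ZFP36L2 had 3.56, 2.95, 4.63 and 6.86 FPKM at 0h, 4.77, 2.12, 2.96 and 1.85 at 22h and 0.15, 0.14, 0.33 and 0.16 at 46h. The first 2 stages overlapped, and every 46h library was below all of them. ZFP36L2 fell by 2.16 log2 units at 46h against 0h (SE 0.24, adjusted p = 2.3e-06) and by 1.66 at 46h against 22h (SE 0.24, adjusted p = 5.6e-05). These values understate the change of a gene at this level because of the added pseudocount of 1: the means were 4.50 ± 1.72 FPKM (SD, n = 4) at 0h, 2.93 ± 1.32 at 22h and 0.20 ± 0.09 at 46h. With a pseudocount of 0.1 the falls were -3.94 and -3.31. At 22h against 0h the change was -0.49 (95% confidence interval -1.01 to 0.02, adjusted p = 0.13), and without 22h replicate 1 it was -0.70 and passed (adjusted p = 0.029).

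YTHDF2 had 41.29, 35.77, 46.16 and 56.69 FPKM at 0h, 62.63, 70.87, 77.06 and 77.19 at 22h and 86.39, 93.63, 130.92 and 106.01 at 46h. The 3 stages did not overlap, and each later stage was higher. YTHDF2 rose by 0.68 log2 units at 22h against 0h (SE 0.18, adjusted p = 0.011) and by 1.2 at 46h against 0h (SE 0.18, adjusted p = 4.4e-05). From 22h to 46h the change was 0.52 (SE 0.18, adjusted p = 0.028), a fold of 1.43 that is under the threshold of 1.5. It passed without 46h replicate 1 (0.60) and after median-of-ratios scaling (0.87) and quantile normalization (0.77). The early rise was 0.58 and under the threshold without 0h replicate 2.

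TUT4, a uridylyltransferase, was listed at 0.33, 0.14, 0.12 and 0.16 FPKM at 0h, at 0.40, 0.23, 0.36 and 0.36 at 22h and at 0.40, 0.19, 0.19 and 0.28 at 46h. The stages overlapped, and no library reached 0.5 FPKM. A two-sided exact permutation test of log2(FPKM + 1) gave a difference of 0.17 (p = 0.057) at 22h against 0h, 0.09 (p = 0.26) at 46h against 0h and -0.08 (p = 0.26) at 46h against 22h, where 4 against 4 libraries cannot go below p = 0.029. The last difference turned to 0.15 after quantile normalization (exact permutation p = 0.11), and that at 46h against 0h was then 0.37 (exact permutation p = 0.029). The median of the 7013 genes tested moved by 0.17 and 0.34 in these 2 comparisons after that scaling.

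In the order of mean FPKM, BTG4 was followed by CNOT7 and YTHDF2 at every stage. CNOT7 averaged 59.6, 75.2 and 116 FPKM at the 3 stages and YTHDF2 45.0, 71.9 and 104, and their libraries overlapped at each stage. CNOT8 came next at 0h with 17.2 FPKM, then CNOT6L with 12.4, CNOT6 with 7.50, ZFP36L2 with 4.50, CNOT1 with 4.19 and TUT4 with 0.19. From CNOT8 down to CNOT1, each of these overlapped the next at 0h, and TUT4 was apart. At 22h CNOT6L with 20.7 and CNOT6 with 13.8 FPKM stood before CNOT8 with 7.70, CNOT1 with 4.98, ZFP36L2 with 2.93 and TUT4 with 0.34. The libraries of CNOT8, CNOT1 and ZFP36L2 overlapped from one gene to the next, and the other neighbours in this group were apart. At 46h CNOT6L with 14.2 and CNOT8 with 10.3 FPKM overlapped, as did CNOT6 with 6.31 and CNOT1 with 4.91, and TUT4 with 0.27 and ZFP36L2 with 0.20 formed the low end.

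Genes of like role, and the adaptor BTG4 with the scaffold CNOT1, were then set against each other within each library. The measure was the difference of log2(FPKM + 1), which cancels most of the scaling of a library. The pairs were CNOT6L and CNOT6, CNOT7 and CNOT8, ZFP36L2 and YTHDF2, and BTG4 and CNOT1; the pair of TUT4 and TUT7 could not be formed. Each of the 4 pairs was compared between 3 pairs of stages, which makes 12 two-sided exact permutation tests with Benjamini-Hochberg adjustment over the 12. The smallest p of each is 0.029, and with 1 library left out it is 0.057, so no test can pass in that case. All tests at this smallest p share 1 adjusted p, 0.043, which depends on how many of the 12 reached it and not on the pair alone. RefSeq transcripts of CNOT6 and CNOT6L shared no stretch of 31 bases, nor did those of CNOT7 and CNOT8, whereas ZFP36L2 shared 20 such stretches (0.937% of its own) with its family member ZFP36L1.

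CNOT7 exceeded CNOT8 in all 12 libraries, and the gap widened early. The difference was 1.93, 1.70, 2.07 and 1.18 log2 units at 0h, 2.96, 3.74, 2.80 and 3.07 at 22h and 3.53, 3.73, 3.3 and 3.0 at 46h. The FPKM ratio of CNOT7 to CNOT8 was 3.53 ± 0.90 (SD, n = 4) at 0h, 10.3 ± 3.6 at 22h and 11.7 ± 2.7 at 46h. The widening was 1.43 at 22h against 0h and 1.67 at 46h against 0h (each exact permutation p = 0.029, adjusted p = 0.043), and the later stages differed by 0.25 (exact permutation p = 0.37, adjusted p = 0.37).

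The difference of ZFP36L2 to YTHDF2 was -3.21, -3.22, -3.07 and -2.88 at 0h, -3.46, -4.53, -4.30 and -4.78 at 22h and -6.25, -6.38, -6.63 and -6.53 at 46h. The 3 stages were apart in every library. The difference changed by -1.17 at 22h against 0h, by -3.35 at 46h against 0h and by -2.18 at 46h against 22h (each exact permutation p = 0.029, adjusted p = 0.043). With a pseudocount of 0.1 the latter changes were -5.15 and -3.83 (each exact permutation p = 0.029). In FPKM, ZFP36L2 went from 0.098 ± 0.017 of the level of YTHDF2 (SD, n = 4) at 0h to 0.042 ± 0.023 at 22h and 0.0018 ± 0.0005 at 46h.

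BTG4 stood between 11.38 and 11.68 log2 units above CNOT1 in the 0h libraries, between 10.96 and 11.80 in the 22h libraries and between 11.82 and 12.74 in the 46h libraries, so that the 0h and 22h values overlapped and all 46h values were higher. The adaptor thus had 3819 ± 446 times the FPKM of the scaffold (SD, n = 4) at 0h, 3274 ± 934 times at 22h and 6228 ± 2147 times at 46h. Their longest annotated transcripts were 2308 bases for BTG4 and 8443 for CNOT1, and the part of length in this ratio was not tested. The difference grew by 0.68 at 46h against 0h and by 0.89 at 46h against 22h (each exact permutation p = 0.029, adjusted p = 0.043), and each had p = 0.057 with a pseudocount of 0.1. At 22h against 0h it changed by -0.21 (exact permutation p = 0.31, adjusted p = 0.37). The pairs were not tested after quantile normalization. There BTG4 changed by 0.34 and CNOT1 by 0.85 at 46h against 0h, so the mean difference shrank. At 46h against 22h they changed by 0.35 and 0.48, so it shrank there as well. That scaling sets a value by its rank, and BTG4 already ranked between 4 and 11 at 0h, so it cannot decide whether the difference grew.

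CNOT6L exceeded CNOT6 in all 12 libraries, by between 0.36 and 1.04 log2 units at 0h, between 0.37 and 0.66 at 22h and between 0.71 and 1.48 at 46h. The difference grew by 0.51 at 46h against 22h (exact permutation p = 0.029, adjusted p = 0.043). It changed by -0.17 at 22h against 0h (exact permutation p = 0.37, adjusted p = 0.37) and by 0.35 at 46h against 0h (exact permutation p = 0.20, adjusted p = 0.27), where the libraries overlapped.

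**Figure D4:**
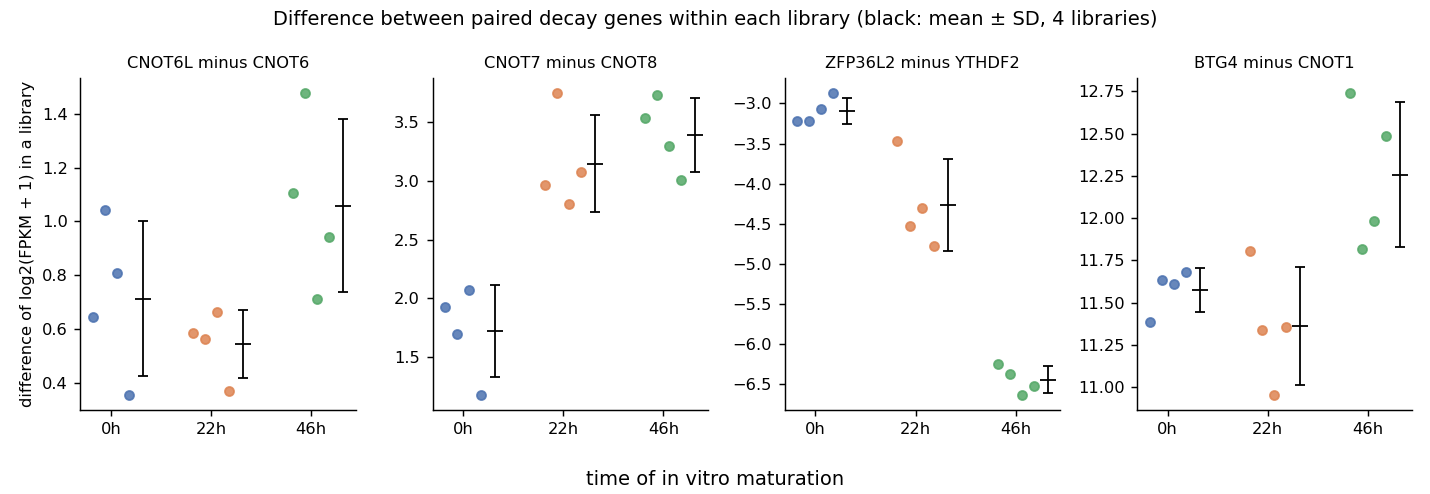
Difference of log2(FPKM + 1) between the 2 genes of a pair within each library at 0h, 22h and 46h, with the mean ± SD of 4 libraries in black; each panel has its own axis, which does not start at 0. CNOT7 minus CNOT8 is at most 2.07 in the 0h libraries and at least 2.80 in all later ones.

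The wider decay machinery was read from 7 lists with 94 genes, of which 90 were matched and 62 tested. At 46h against 0h, 0 of 5 tested genes of the other CCR4-NOT subunits and BTG/TOB proteins were higher and 2 lower in limma (0.05 adjusted p and 1.5-fold), 0 and 2 of 7 other deadenylases, 3 and 8 of 16 decapping and 5′ to 3′ decay genes, 0 and 6 of 13 3′ to 5′ decay genes, 1 and 2 of 8 other RNA-binding recruiters, 0 and 0 of 4 other nucleotidyltransferases, and 2 and 2 of 9 other N6-methyladenosine genes, beside 16.8% of all genes higher and 39.1% lower. The median log2 change was -0.28, -0.13, -0.48, -0.27, -0.45, 0.18 and 0.31 in the same order, beside -0.25 over all genes tested. After quantile normalization the counts became 2 and 0, 3 and 2, 4 and 6, 3 and 4, 3 and 1, 3 and 0, and 5 and 1, beside 40.3% of all genes higher and 27.1% lower and with 0.34 as the median of all genes. The list medians were then 0.18, 0.53, 0.08, 0.39, 0.20, 0.86 and 0.77. After median-of-ratios scaling they were 0.11, 0.23, -0.21, 0.07, -0.10, 0.50 and 0.71, beside 0.06 over all genes. At 22h against 0h the counts as deposited were 0 and 1, 2 and 1, 1 and 3, 0 and 3, 3 and 0, 1 and 0, and 2 and 0, beside 7.84% and 18.9%, and after quantile normalization 1 and 1, 3 and 1, 2 and 1, 0 and 2, 3 and 0, 1 and 0, and 3 and 0, beside 14.6% and 15.4%. At 46h against 22h they were 0 and 1, 0 and 2, 2 and 7, 1 and 5, 0 and 5, 1 and 0, and 1 and 2, beside 9.87% and 32.6%, and after quantile normalization 1 and 0, 0 and 2, 4 and 6, 5 and 4, 1 and 4, 1 and 0, and 3 and 1, beside 26.8% and 21.5%.

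The 4 largest falls among the 62 tested genes were those of SKIC8, LSM4, EXOSC8 and ANGEL2. SKIC8, a subunit of the SKI complex that feeds mRNA to the exosome, went from 215 ± 51.4 FPKM (SD, n = 4) at 0h to 119 ± 20.7 at 22h and 2.0 ± 0.26 at 46h, and fell by 6.13 log2 units at 46h against 0h. LSM4, of the LSM ring that binds deadenylated mRNA and of its nuclear counterpart, went from 210 ± 16.8 to 169 ± 35.5 and 5.15 ± 0.85 FPKM and fell by 5.10. EXOSC8, an exosome core subunit, fell by 4.86. ANGEL2, of the same nuclease fold as CNOT6, fell by 4.51, from 59.8 ± 5.7 FPKM at 0h to 1.66 ± 0.18 at 46h. LSM2 fell by 2.30 and TOE1, another deadenylase, by 1.87. These 6 falls passed as well after median-of-ratios scaling and quantile normalization, at -5.81, -4.74, -4.57, -4.2, -2.01 and -1.65 in the former.

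As deposited, no other subunit of CCR4-NOT passed as a rise. CNOT10 went from 16.4 ± 3.41 to 8.14 ± 0.64 FPKM between 0h and 46h and fell by 0.91 log2 units (adjusted p = 0.00034), and CNOT4, a ubiquitin ligase associated with the complex, fell by 0.73 (adjusted p = 0.017), and neither passed after median-of-ratios scaling (-0.54 and -0.34) or quantile normalization (-0.27 and -0.20). After these scalings 1 and 2 of the 5 tested genes rose, beside 29.3% and 40.3% of all genes.

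Of the 6 rises among the 62 tested genes, the 5 named by the rule were DCP1A, PATL1, METTL3, METTL14 and YTHDF3. DCP1A, a decapping activator, went from 24.8 ± 13.3 FPKM at 0h to 49.2 ± 9.88 at 46h (log2 change 1.12, adjusted p = 0.030), and PATL1, which bridges deadenylation and decapping, from 5.24 ± 0.90 to 10.4 ± 1.61 (0.87, adjusted p = 0.00032). METTL3, the methyltransferase, rose from 6.47 ± 1.35 to 20.6 ± 1.85 (1.55, adjusted p = 2.6e-05), and METTL14, its partner, from 18.6 ± 1.22 to 31.2 ± 4.2 (0.70, adjusted p = 0.00072). The demethylase ALKBH5 first rose, from 22.6 ± 8.93 FPKM at 0h to 39.5 ± 5.53 at 22h (0.86, adjusted p = 0.023), and was at 2.57 ± 0.8 at 46h, a fall against 0h (-2.67, adjusted p = 6.1e-07). The nuclear reader YTHDC1 fell by 0.66 (adjusted p = 0.047) but was at -0.30 and -0.01 and not called after median-of-ratios scaling and quantile normalization. Of the relatives of YTHDF2, YTHDF3 rose by 0.59 (adjusted p = 0.018) and YTHDF1 fell by 1.61 (adjusted p = 0.00014), and the translational repressor PUM2 fell by 0.98 (adjusted p = 0.0013), with -0.29 and no call after quantile normalization.

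**Figure D5:**
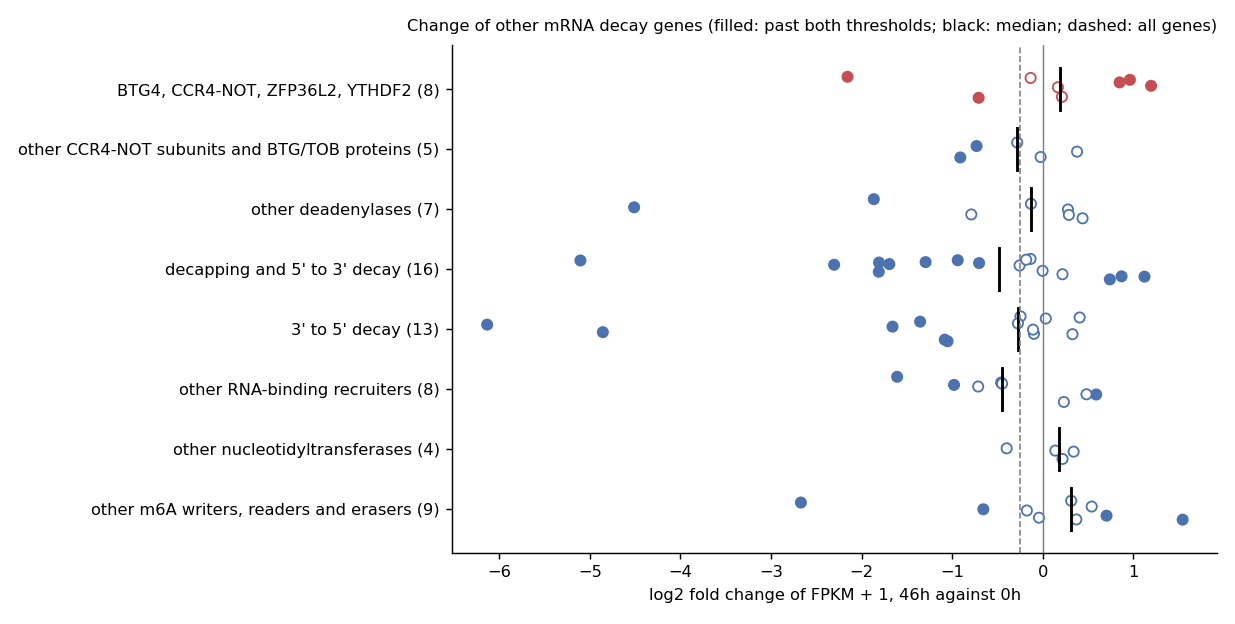
Log2 fold change of FPKM + 1 at 46h against 0h, 1 circle for each tested gene of 7 lists of mRNA decay genes (blue) and of the 8 genes described above (red), filled where past both thresholds; black lines are list medians and the dashed line is the median of all genes tested. The lowest circle of the 3′ to 5′ decay list is SKIC8 at -6.13, and the highest of the N6-methyladenosine list is METTL3 at 1.55.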

How the data were processed

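The deposited values are FPKM per Ensembl gene, which the authors made from SMART-Seq2 reads trimmed with Trim Galore, aligned with STAR to the pig genome (named Sscrofa11) and quantified with RSEM. Counts made with HTSeq were not used here, so depth is unknown and the spread over 4 libraries is the measure of precision. From the deposited FPKM, log2(FPKM + 1) of all 12 libraries was modelled in R 4.3.3 by limma 3.58.1 (lmFit, then eBayes with a trend) with stage as the only factor. Genes entered at 1 FPKM or more on average. P-values are two-sided and were adjusted by Benjamini-Hochberg across all 7013 genes, and a gene passed at an adjusted p under 0.05 and a fold change over 1.5, the thresholds of the study. The fit was tested on simulated data. Exact permutation tests used scipy 1.17.1. Identifiers were named by the gene table of the reference, which named 15029 of 31908, and sequences came from RefSeq, Sscrofa11.1. Named genes were all members, from each list the 2 largest rises and 2 largest falls at 46h against 0h past the thresholds, and the 5 genes nearest to BTG4. Unmatched were BTG2, LSM1, SKIC3 and TENT4B of the lists and DAZL, CYP19A1 and HSD3B of the markers. The members and lists were chosen with earlier results of these data known. Alternatives were another pseudocount, other filters, scalings and fits, a replicate block and each library left out.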

Additional observations from a re-analysis of the deposited data

Results flagged for a closer look

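In 1 of 27 groups of 4 libraries (9 genes at 3 stages) a single library lay far from the rest. ZFP36L2 in 46h replicate 3 was at 0.33 FPKM, whereas the other 46h libraries were at 0.14 to 0.16 FPKM, and the gap was 0.895 of the range of the group. About 1 in 20 such groups is expected to stand out by chance, and all 4 values are below every value of the earlier stages.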

How the results depend on the processing

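Of 426 alternative values for the 24 log2 changes of the 8 genes, 382 kept their direction and their side of the thresholds, 21 lost a call, 10 gained one and 13 changed sign, none of them a called value. The cause of these differences was not tested. The changes of sign were BTG4 at 22h against 0h (0.033 after median-of-ratios scaling, 0.069 in TPM without mitochondrially encoded genes, -0.072 to 0.045 with 1 library left out), CNOT6 at 46h against 0h (0.22 after median-of-ratios scaling, 0.52 after quantile normalization, -0.39 to 0.11 with 1 library left out) and CNOT1 at 46h against 22h (0.26, 0.48, and -0.15 to 0.085 in the same order). For TUT4, 46h against 22h gave 0.00052 by median of ratios and 0.15 by quantiles, and 46h against 0h gave 0.37 by quantiles. By quantiles the median gene tested moved by 0.17 and 0.34 in these 2 comparisons.

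The number of the 8 genes past the thresholds at 22h against 0h, 4, was 2 without the filter, 2 in a fit of only the stages compared, 1 at a fold change over 2 and 1 to 4 with 1 library left out. At a fold change over 2 it was 2 in both other comparisons. Of all genes, 1713 of 17633 passed at 22h against 0h without the filter and 1633 of 7013 in the fit of only the stages compared. With 1 library left out, 1546 to 2172 of 7013 passed there. Over all 7013 genes, a fold change over 2 left 871 of 1873 calls at 22h against 0h. It left 2687 of 3922 at 46h against 0h and 1736 of 2975 at 46h against 22h. A fit of the 4144 genes that averaged 5 FPKM or more gave 2546 calls at 46h against 0h, where 3922 were reported.

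Replicate numbers were not taken to pair the libraries: the correlation of deviations between same-numbered libraries ranged from -0.47 to 0.38 and was over 0.1 in 3 of 12 cases, and 4 of 12 were best with their own number. These 3 cases were all at 46h against 22h (0.38, 0.21 and 0.13, each best with its own number), where the fourth was at 0.0088, a hint from the data and not from the design. With the replicate block, calls over all genes were 1801, 3894 and 2933 at 22h against 0h, 46h against 0h and 46h against 22h, and 3 of the 8 genes passed at 22h against 0h, where CNOT6L had an adjusted p of 0.052. The blocked form of the differences between 2 genes, an exact sign-flip over the 4 replicate numbers, is too small to pass the threshold, and its values are those reported: 0.51 for CNOT6L minus CNOT6 at 46h against 22h, 1.43 and 1.67 for CNOT7 minus CNOT8 at 22h and 46h against 0h, -1.17, -3.35 and -2.18 for ZFP36L2 minus YTHDF2, and 0.68 and 0.89 for BTG4 minus CNOT1 at 46h against 0h and 22h. With 1 library left out, where no test can pass, these ranged from 0.37 to 0.63, 1.23 to 1.54, 1.49 to 1.8, -1.44 to -1.0, -3.42 to -3.28, -2.35 to -1.91, 0.52 to 0.83 and 0.73 to 1.04. With a pseudocount of 0.1 ZFP36L2 minus YTHDF2 was -5.15 at 46h against 0h and -3.83 at 46h against 22h, and the last 2 differences were 0.65 and 0.90, each with p = 0.057 in an exact permutation test. After quantile normalization, in which the pairs were not tested, the mean difference of BTG4 minus CNOT1 shrank. That scaling sets a value by its rank, and BTG4 already ranked between 4 and 11 at 0h. It therefore cannot decide whether the difference grew. CNOT1 then rose by more than BTG4, by 0.85 and 0.34 at 46h against 0h. At 46h against 22h these values were 0.48 and 0.35.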
